A study of Rattus norvegicus with 6 samples.

Results

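The genes described are the smooth muscle contractile and filament genes Acta2, Tagln, Myh11, Des and Vim in rat vascular smooth muscle cells (VSMCs) with and without interference of SLC2A10. They were chosen by 5 Ensembl gene IDs (ENSRNOG00000058039 for Acta2, ENSRNOG00000017628 for Tagln, ENSRNOG00000057880 for Myh11, ENSRNOG00000019810 for Des and ENSRNOG00000018087 for Vim), out of 13304 genes in the deposited tables (12224 Ensembl IDs, the rest loci without an ID). Of the 5 genes, 4 had at least 1 value and 3 passed the filter on low values, namely Acta2, Myh11 and Vim. To pass, a gene needed 2 or more libraries with an FPKM of 1 or more, which held for 10558 genes. FPKM scales the sequenced fragments of a transcript by its length and by the size of the library.

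RNA from 6 libraries was sequenced to ask what the glucose transporter GLUT10, the product of SLC2A10, does in VSMCs. All libraries carry the labels strain SD (Sprague-Dawley) and tissue aorta. The 2 control libraries are labelled wild type and, in the results of the study's paper, received control virus. The other 4 libraries are labelled SLC2A10-/- and siRNA, whereas the paper describes knockdown by short hairpin RNA virus. The organism label and the methods name rat, while the design text of the series speaks of mice. They comprise 2 libraries for each of 2 interference sequences, called sequence 2 and sequence 3 after the numbers in the sample titles, and are called knockdown libraries here. The methods describe primary cells grown out of aorta pieces of male rats and used at passage 3, while the extraction label names frozen aorta, and which of these gave the RNA is unclear. Neither the age of the rats nor whether the replicates came from separate cultures is given, and the p-values then reflect only how these libraries vary, which may be technical. SLC2A10 itself was not analysed here, because the Ensembl IDs of the files could not be paired with gene names, and each direction rests on the labels.

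Smooth muscle cells contract when myosin filaments pull on actin filaments. Acta2 encodes smooth muscle alpha-actin, the main actin of these filaments. Myh11 encodes the smooth muscle myosin heavy chain, the motor protein and the marker held to be most specific for mature smooth muscle. Tagln encodes transgelin (SM22-alpha), an actin-binding protein. Des and Vim encode desmin and vimentin, which assemble into intermediate filaments. Desmin is typical of muscle cells, and vimentin is abundant in cells of mesenchymal origin and in vascular smooth muscle. VSMCs in serum culture are known to lose part of their contractile programme, with Myh11 and Des among the genes that fall, while Vim is kept. Serum response factor switches on many contractile genes through CArG boxes, short A- and T-rich DNA sites flanked by C and G pairs.

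The events of Acta2 lay at locus XLOC_004156 on chromosome 1 from 252537615 to 252550394, on the minus strand. Those of Myh11 lay at XLOC_005999 on chromosome 10 from 764421 to 859184, and those of Vim at XLOC_018882 on chromosome 17 from 80882666 to 80891212, both on the plus strand. Positions are as the files give them, and no source used here names their genome build. The chromosome was the same as that of the RefSeq gene of the same name in GRCr8, and the span of the locus came to between 99.6% (Myh11) and 101% (Vim) of the RefSeq gene length for these 3 genes. The gene names used here are those given with the IDs when the genes were chosen, and the agreement of chromosome and span is the check that could be made.

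Acta2 and Vim each had a single transcript start in all 6 libraries, and the promoter that RefSeq gives for each gene of this pair is shown. Since the builds were not compared, the start in the files was not shown to be the RefSeq start. The sequences are the 250 bases before the RefSeq start in GRCr8, 5′ to 3′ on the strand of the gene, at chr1:241172504-241172753 (minus strand) for Acta2 and chr17:81577011-81577260 (plus strand) for Vim. Capitals mark CArG-like sites, in which 1 base of the A- and T-rich core is G or C, and the motif TATAAA, both searched on both strands.
Acta2: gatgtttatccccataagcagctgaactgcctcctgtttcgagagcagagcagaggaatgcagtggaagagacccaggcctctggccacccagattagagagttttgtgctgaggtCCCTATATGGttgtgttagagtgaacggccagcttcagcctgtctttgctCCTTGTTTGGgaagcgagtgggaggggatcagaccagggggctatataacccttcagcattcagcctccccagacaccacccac
Vim: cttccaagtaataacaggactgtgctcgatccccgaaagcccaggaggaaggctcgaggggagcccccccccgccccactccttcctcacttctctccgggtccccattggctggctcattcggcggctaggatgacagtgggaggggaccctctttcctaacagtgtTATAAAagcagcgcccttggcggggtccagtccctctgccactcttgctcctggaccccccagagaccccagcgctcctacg
The Acta2 window held 2 CArG-like sites, CCCTATATGG and CCTTGTTTGG, beginning 134 and 84 bases before the start. At least 1 such site was found in 6.84% of the 33469 RefSeq promoters of this length. A CArG box with a core of only A and T was found in neither window, and in 501 of all promoters. The Vim window held no CArG-like site and 1 TATAAA, beginning 82 bases before the start, a motif present in 12.9% of all promoters. The Des window, searched in the same way and not printed, held no CArG box, CArG-like site or TATAAA. The sites thus do not set the muscle genes apart from Vim. These matches describe the letters in the window and show no binding.

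Within each library the levels fell in the order Vim, Acta2, Myh11, with Vim at 1748 to 2190 FPKM, Acta2 at 736 to 1105 FPKM and Myh11 at 2.24 to 4.31 FPKM. Vim ranked between 6 and 9 among the 11431 to 11701 genes listed in a library and Acta2 between 24 and 47, whereas Myh11 ranked between 7119 and 8704. The FPKM of Acta2 was 237 to 458 times that of Myh11 in the same library. No value was listed for Tagln in any library, so nothing is said of its level. Des had a single listed event, a transcript end of 0.473 FPKM in control replicate 1 on chromosome 9 from 82563569 to 82564294, which spans 9.41% of the RefSeq gene length, and had no event listed in the other 5 libraries. Such a listing in 1 library was found for 8.70% of all genes, and an unlisted gene can be a failed estimate, so no level is read for Des either. Of the smooth muscle markers, Acta2 was thus abundant and Myh11 was low, and the label could not be checked against Tagln and Des. Markers of fibroblasts, endothelium, leukocytes and striated muscle were not analysed here for want of gene names, so their part in these levels was not tested. In bulk samples fewer cells of a type and less RNA per cell cannot be told apart.

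**Figure D1:**
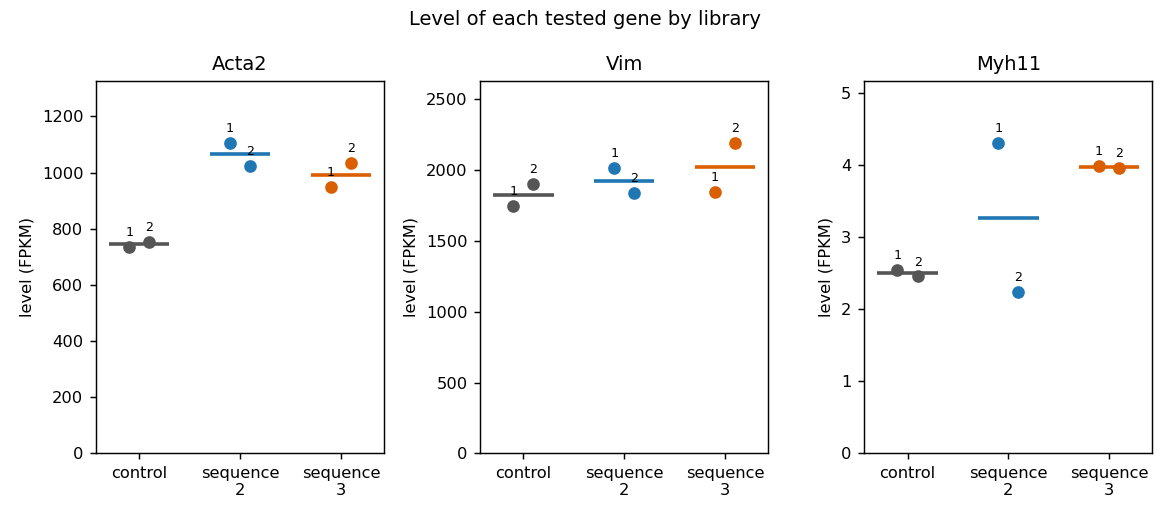
Level in FPKM (vertical axis) of Acta2, Vim and Myh11 in each of 6 libraries, grouped as control, sequence 2 and sequence 3 on the horizontal axis, with the replicate number beside each point and the mean of 2 libraries as a bar. For Acta2 the 4 knockdown libraries, at 949 to 1105, sit above both controls, at 736 and 754, which held for 22.6% of all tested genes. The groups overlap for Vim, and for Myh11 sequence 2 spans the controls and sequence 3 lies above them.

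The comparison of the knockdown libraries with controls asks whether interference of SLC2A10 went with a different level of these genes. None of the 3 tested genes passed an adjusted p of 0.05, with both sequences pooled or with each alone. Acta2 was nearest to the threshold. It was higher in all 4 knockdown libraries than in both controls, as were 22.6% of all tested genes. Myh11 and Vim overlapped between the 4 knockdown libraries and the controls, while both libraries of sequence 3 lay above both controls for Myh11, as they did for 37.1% of all tested genes. Over all tested genes limma called 5.11% when both sequences were pooled, 3.55% for sequence 2 and 4.21% for sequence 3. Of the 3 tested genes, 1 (Acta2) had an unadjusted p under 0.05 in each of these comparisons. At that limit lay 21.9% of all tested genes with both sequences pooled, 16.2% for sequence 2 and 22.4% for sequence 3. The median log2 fold change of the 3 genes was 0.38 in knockdown against control, where the median over all tested genes was 0.082. With sequence 2 these medians were 0.24 and 0.063, and with sequence 3 they were 0.41 and 0.11. A median of 3 genes is the value of 1 gene, here Myh11 when pooled and with sequence 2, and Acta2 with sequence 3. A larger absolute change was found for 27.0%, 43.2% and 30.6% of all tested genes, in that order. No shift of the set is read from these medians. The comparisons of each sequence with control share the same 2 control libraries.

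Acta2 had FPKM values of 736 and 754 in the 2 control libraries, 1105 and 1025 with sequence 2, and 949 and 1035 with sequence 3. The controls lay close together, the 4 knockdown libraries did not overlap them, and the libraries of both sequences overlapped each other. Between the controls Acta2 differed 1.02-fold, and of the 101 tested genes with a mean within 2-fold of that of Acta2, 91.1% differed more. Between the replicates of sequence 2 and of sequence 3, 79.2% and 87.1% of these genes differed more than Acta2. A level above both controls in all 4 knockdown libraries was found for 22.6% of all tested genes. The mean was 745 ± 12.4 FPKM (SD, n = 2) in controls and 1028 ± 64.1 (SD, n = 4) in knockdown libraries. The log2 fold change on the log2(FPKM + 1) scale was 0.46 with a standard error of 0.11 and a 95% interval from 0.20 to 0.72, which corresponds to 1.38-fold (1.15 to 1.65). The adjusted p from limma was 0.0726, and 7.01% of the tested genes had a smaller p. The difference therefore failed the correction for multiple tests.

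With sequence 2 the mean of Acta2 was 1065 ± 56.6 FPKM (SD, n = 2), a log2 fold change of 0.51 (standard error 0.12, adjusted p = 0.105 from limma). With sequence 3 it was 992 ± 60.9 FPKM (SD, n = 2), a log2 fold change of 0.41 (standard error 0.12, adjusted p = 0.135 from limma). The direction was the same with both sequences, and neither passed the threshold. Set against the median shift of all tested genes, the Acta2 change was 0.38 on the log2 scale for the pooled sequences, 0.45 for sequence 2 and 0.30 for sequence 3.

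As a share of the FPKM summed over all genes, Acta2 made up 0.247% and 0.236% in controls, 0.339% and 0.332% with sequence 2, and 0.291% and 0.281% with sequence 3. The groups did not overlap on this measure either. It rescales the same Acta2 values, and how many other genes separate the groups on it was not counted. By rank within the library, however, the controls and the knockdown libraries did overlap. Acta2 was at rank 39 and 47 in controls, 24 and 26 with sequence 2, and 36 and 45 with sequence 3. After quantile normalization, which keeps the rank of each gene, the log2 fold change was 0.21 (adjusted p = 0.231 from limma) for the pooled sequences, 0.38 for sequence 2 and 0.047 for sequence 3. The sign was thus kept under each scaling tried, and the size with sequence 3 was not. That sequence 3 value had a standard error of 0.099 (adjusted p = 0.821 from limma). The median of all tested genes was 0.055 for sequence 3 after quantile normalization. No rise of Acta2 with sequence 3 is therefore read from that scaling.

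**Figure D2:**
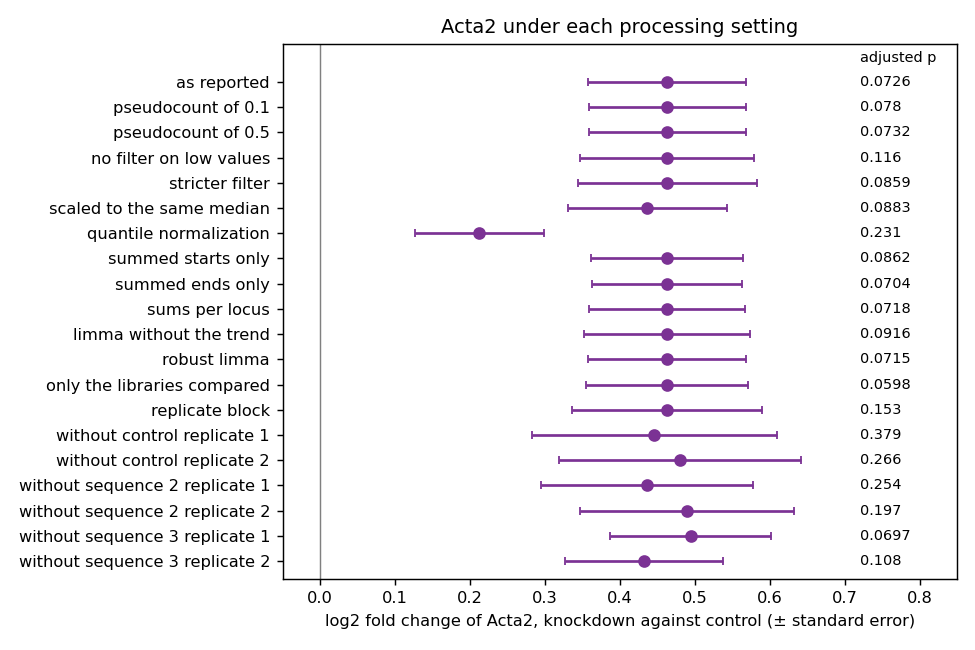
Log2 fold change of Acta2 in knockdown against control (horizontal axis, bars are the standard error) as reported and under 19 other settings, with the adjusted p from limma at the right. Each value lies above 0, quantile normalization gives the lowest, 0.21, and the adjusted p runs from 0.0598 to 0.379.

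A retained-intron event within Acta2 set 1 library apart. It concerns an exon of 85 bases, from 252542627 to 252542711, of which the inner 35 bases are either kept or spliced out. The form that keeps them was the only form listed in 5 libraries and carried the whole Acta2 level there, 736 and 754 FPKM in controls, 1105 in sequence 2 replicate 1, and 949 and 1035 with sequence 3. In sequence 2 replicate 2 the form that keeps them had 442 FPKM and the form without them 583 FPKM, or 56.9% of the Acta2 level of that library. The removed stretch is not a multiple of a codon in length. The total over both forms, 1025 FPKM, is the value used in the comparisons above.

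The tables hold 1518 distinct events of this kind with a spliced-out form, and the median stretch taken out is 539.5 bases. Only 18 of them, or 1.19%, were shorter than 50 bases, and 15 of these 18 were listed in a single library. Of the 303 such forms that were listed in a single library, 3 reached 100 FPKM, and that of Acta2 was the third by level. Since the read depth is unknown, no counting interval can be given for either form.

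**Figure D3:**
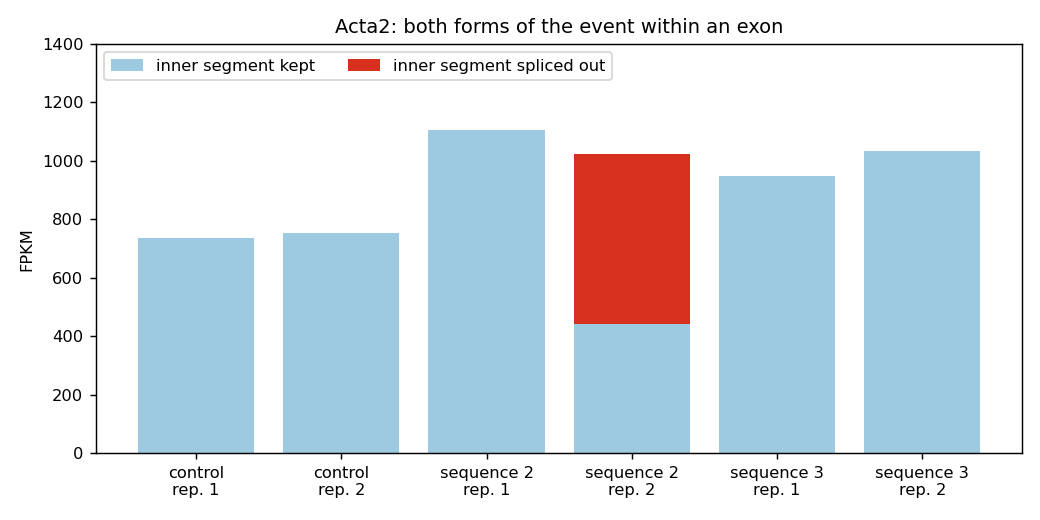
FPKM of Acta2 (vertical axis) in each of 6 libraries (horizontal axis, rep. stands for replicate), split into the form that keeps the inner 35 bases of an exon and the form in which they are spliced out. The spliced-out form appears in sequence 2 replicate 2, with 583 of 1025 FPKM, and in no other library.

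Myh11 had levels of 2.55 and 2.46 FPKM in controls, 4.31 and 2.24 with sequence 2, and 3.995 and 3.968 with sequence 3. The controls were close to each other, as were both libraries of sequence 3, and the libraries of sequence 2 lay on either side of the controls. By summed ends alone the controls were farther apart, at 2.55 and 1.97 FPKM, with sequence 2 replicate 2 between them. Both libraries of sequence 3 were above both controls. The log2 fold change in knockdown against control was 0.38, and as a fold it was 1.30 with a 95% interval from 0.889 to 1.89 (adjusted p = 0.380 from limma). With summed ends only, this log2 fold change was 0.49 (adjusted p = 0.292 from limma). For sequence 2 the log2 fold change was 0.24, or 1.18-fold (0.765 to 1.83, adjusted p = 0.716 from limma). For sequence 3 it was 0.51, or 1.42-fold (0.919 to 2.20, adjusted p = 0.299 from limma). Each interval holds both no change and a rise of 1.83-fold, so a difference of that size could not be told from none.

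Within sequence 2 the replicates were far apart. They differed 1.93-fold in Myh11, and of the 3394 tested genes with a mean within 2-fold of that of Myh11, 6.75% differed more. On the level used, the larger of summed starts and summed ends, the Myh11 replicates differed 1.04-fold in controls and 1.01-fold with sequence 3. Without replicate 1 of sequence 2 the log2 fold change with sequence 2 was -0.11, and without its replicate 2 it was 0.60. Neither fit called the gene, and each takes the spread of the lone sequence 2 library from the other groups. In knockdown against control these values were 0.20 and 0.55.

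Myh11 was the only one of the 3 tested genes with several listed starts. Its first start, at 764421 to 764552, was listed in all 6 libraries, with 1.91 and 2.46 FPKM in controls, 3.804 and 1.35 with sequence 2, and 2.58 and 3.97 with sequence 3. It made up 60.1% to 100% of the summed starts. The other starts lay 3217, 51180, 51244 and 91113 bases downstream and reached at most 0.728 FPKM in any library. The start 3217 bases downstream was listed in control replicate 1 alone, at 0.643 FPKM, and the farther starts were listed in knockdown libraries alone. The start 51180 bases downstream had 0.516 FPKM in sequence 2 replicate 2 and 0.684 in sequence 3 replicate 1, and the start 51244 bases downstream had 0.504 in sequence 2 replicate 1 and 0.728 in sequence 3 replicate 1. Each of these libraries also had the first start at a higher level. At values under 1 FPKM, with depth unknown, an unlisted start cannot be told from a missed one. A single transcript end, at 858564 to 859184, was listed in all 6 libraries at 1.97 to 4.31 FPKM.

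**Figure D4:**
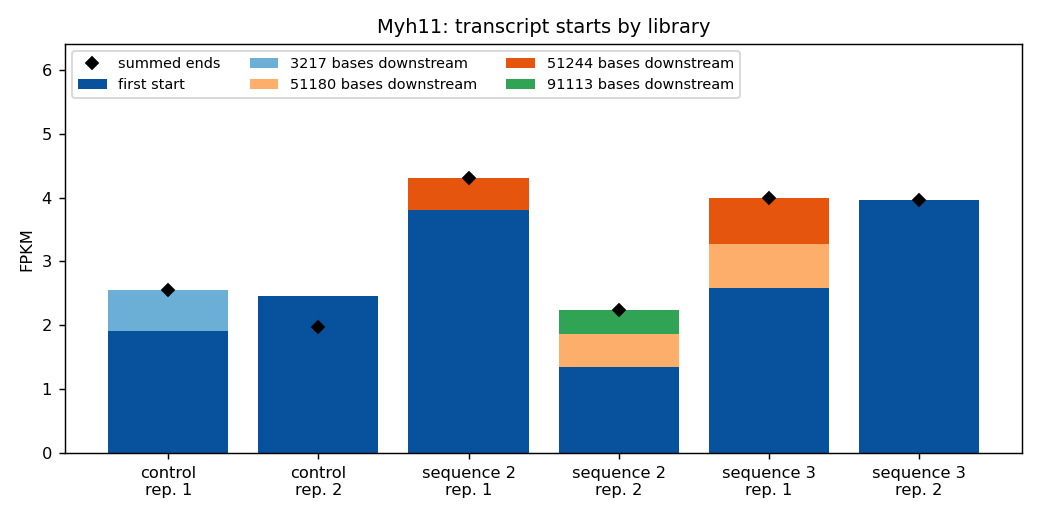
FPKM of Myh11 transcript starts (vertical axis) stacked by distance from the first start, in each of 6 libraries (horizontal axis, rep. stands for replicate), with the summed transcript ends as diamonds. The first start carries most of the level in each library, from 1.35 in sequence 2 replicate 2 to 3.97 in sequence 3 replicate 2, and starts 51180 bases or more downstream appear in 3 knockdown libraries.

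The Myh11 events also gave a view of its exons. A short exon of 21 bases, or 7 codons, at 798582 to 798602 was listed as skipped in all 6 libraries, at 1.35 to 3.97 FPKM, and its included form was listed in none. Smooth muscle myosin heavy chain is known to come in a form with a short insert in the motor domain (SM-B), typical of fast visceral muscle, and a form without it (SM-A), typical of large arteries. Whether the exon listed here is the one that encodes this insert was not tested. An exon of 117 bases right after the first exon was listed as included in 3 libraries, and whether it is translated was not tested. Of the included and skipped forms together, the included form made up 19.9% in control replicate 2, 31.5% in sequence 2 replicate 1 and 49.6% in sequence 3 replicate 1. It was not listed in control replicate 1, sequence 2 replicate 2 and sequence 3 replicate 2. Where listed it had 0.489 to 1.28 FPKM, and at such levels an unlisted form cannot be told from a missed one. These shares did not separate the groups, as each group had 1 library that listed the included form and 1 that did not.

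Vim had levels of 1748 and 1901 FPKM in controls, 2012 and 1835 with sequence 2, and 1845 and 2190 with sequence 3. The groups overlapped, with the lower library of each sequence between both controls. The log2 fold change in knockdown against control was 0.11, with a 95% interval from -0.21 to 0.43 (adjusted p = 0.678 from limma), and the median of all tested genes was 0.082. With sequence 2 it was 0.076 (-0.30 to 0.45, adjusted p = 0.860 from limma) and with sequence 3 it was 0.14 (-0.23 to 0.51, adjusted p = 0.610 from limma). After quantile normalization the sign turned in knockdown against control, to -0.072, and with sequence 3, to -0.17. No direction is therefore given for Vim. Its start, at 80882666 to 80883357, and its end, at 80890844 to 80891212, had the same FPKM in each library, and no splicing event was listed for it.

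The ratio of Acta2 to Vim within a library does not depend on a factor that multiplies the whole library. Acta2 had 42.1% and 39.6% of the FPKM of Vim in controls, 54.9% and 55.9% with sequence 2, and 51.4% and 47.3% with sequence 3. All 4 knockdown libraries lay above both controls, and those of sequence 2 above those of sequence 3. The ratio uses the same Acta2 values as above, and how often other pairs of genes separate the groups was not counted. The ratio is a description of a pair chosen with the values known and has no test.

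**Figure D5:**
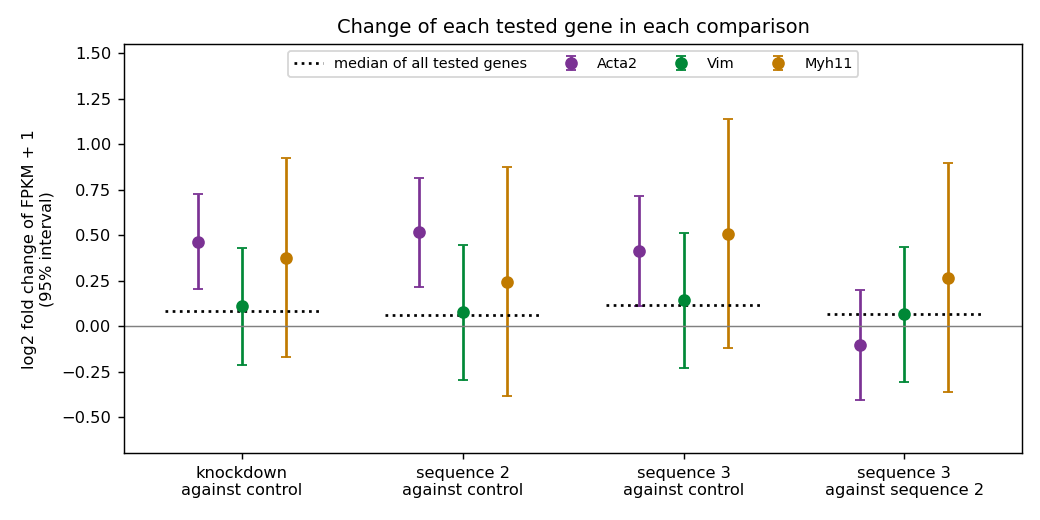
Log2 fold change of FPKM + 1 (vertical axis) of Acta2, Vim and Myh11 in 4 comparisons (horizontal axis), with 95% intervals from limma not adjusted for multiple tests and the median of 10558 tested genes as a dotted line. The Acta2 interval lies above 0 in the 3 comparisons with control, and each interval of Vim and Myh11 holds 0.

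Sequence 3 was set against sequence 2 to ask whether the interference sequences differed in these genes. None of the 3 passed an adjusted p of 0.05 from limma, or an unadjusted p of 0.05, against 0.0663% of all tested genes called and 5.44% past the unadjusted limit. For Acta2 the log2 fold change of sequence 3 against sequence 2 was -0.10, with a 95% interval from -0.40 to 0.20 (adjusted p = 0.787 from limma). For Myh11 it was 0.26 (-0.36 to 0.89, adjusted p = 0.753 from limma) and for Vim 0.065 (-0.31 to 0.44, adjusted p = 0.898 from limma). The intervals are wide, with 2 libraries on each side, and do not show that the sequences act alike.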

How the data were processed

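Transcriptomes of 6 libraries were analysed, grouped by the sample titles into 2 controls and 2 libraries for each interference sequence. The values the authors deposited are FPKM, given per library for every start, end and splicing event of a transcript. In the submitters' processing notes the tools HTSeq 0.6.1, SAMtools 0.1.18, StringTie 1.0.4, HISAT2 2.0.1, Trimmomatic 0.30 and bcl2fastq 2.17.1.14 appear without a role. No source used here names the genome build, annotation or event caller. These values carry no read counts, and with unknown depth their counting error was not estimated. The libraries listed 12837 to 13826 starts and 11431 to 11701 genes, with a median FPKM of 6.65 to 7.09. The highest share of equal values between any pair of libraries was 0%.

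Repeated event numbers were dropped. A gene's level was its summed starts or its summed ends, whichever was larger, per Ensembl ID (per locus without one). Unlisted genes were set to 0, which can be a failed estimate. Genes reaching an FPKM of 1 in 2 or more libraries (10558) were compared as log2(FPKM + 1) by limma 3.58.1 (R 4.3.3), using group means, the mean-variance trend and Benjamini-Hochberg adjustment over all of them. The pseudocount makes fold changes of low genes such as Myh11 look smaller than they are. Knockdown is the mean of both sequences. Python 3.11.15 with pandas 2.3.3 read the tables. The model was tested on simulated data.

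The genes and lists were chosen with earlier results of these data known. The RefSeq gene table (GRCr8) paired 0 of the 12224 Ensembl IDs with a symbol. The planned contractile, filament and marker lists, the genes most alike in pattern and SLC2A10 were for this reason not analysed here. By the rule for named genes, all 5 genes of the set are named. RefSeq promoter sequences were matched by symbol for 3 of the 5 genes, Acta2, Des and Vim. Other pseudocounts, filters, scalings, sums, models and left-out libraries were tried and are given in the closing section.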

Additional observations from a re-analysis of the deposited data

Results flagged for a closer look

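Among the 4 knockdown libraries the Myh11 level of sequence 2 replicate 2, 2.24 FPKM, lay far below the other 3, at 3.97 to 4.31 FPKM. By Dixon's test, chance marks about 1 in 20 such groups, and 3 genes were looked at.

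Several events of these genes were listed in knockdown libraries and in neither control. The spliced-out form within an Acta2 exon had 583 FPKM in sequence 2 replicate 2. The Myh11 starts 51180, 51244 and 91113 bases downstream of the first had at most 0.684, 0.728 and 0.377 FPKM. A pair of Myh11 exon forms was listed in sequence 3 replicate 1 alone, an exon end at 811620 in place of 811636 with 0.547 FPKM and an exon beginning at 816377 in place of 816459 with 0.684 FPKM. No difference between groups was tested for these events, and the libraries that list them are 1 or 2 of 4. Sequence 2 replicate 2 thus held both the lowest Myh11 level among the knockdown libraries and the second Acta2 form.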

How the results depend on the processing

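With limma, 0 of the 3 tested genes were called in any of the 4 comparisons under the 19 other settings. Of 228 log2 fold changes 221 kept their direction and 7 turned. Many of them could not turn. Other filters, other limma models and the block left the fold changes of these genes as they were. Leaving out a library outside a comparison of 1 sequence also left its value unchanged. The count is therefore no measure of how stable the directions are. Quantile normalization turned Vim to -0.072 in knockdown against control, -0.17 with sequence 3 and -0.19 in sequence 3 against sequence 2. Leaving out 1 library at a time, Myh11 ranged from -0.11 to 0.60 with sequence 2 and from -0.092 to 0.62 in sequence 3 against sequence 2, where Vim ranged from -0.058 to 0.19. It was -0.0011 for Vim without sequence 2 replicate 2. Acta2 in knockdown against control ranged from 0.43 to 0.49, with an adjusted p of 0.0697 to 0.379, where a lone library takes its spread from the other groups. Deviations of libraries with the same replicate number were weakly correlated across genes. The r was -0.071 for control and sequence 2, 0.18 for control and sequence 3, and -0.086 for both sequences. These values cannot exclude a pairing, and the replicate numbers were not taken as one. With the replicate block the adjusted p of Acta2 was 0.153, and 0 of the 3 genes were called in each comparison. Over all tested genes 539 were called in knockdown against control, 379 with the block, and 163 to 628 without 1 library (163 and 180 without control replicate 1 or 2, 276 and 298 without sequence 2 replicate 1 or 2). The 7 called in sequence 3 against sequence 2 were 0 with the stricter filter, with the block and with only the libraries compared. The settings of the gene lists were not run, because their genes could not be named. The causes of these changes were not tested. With no read depth, its limits cannot be stated.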
